A study of Mus musculus with 6 samples.

Results

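Jun, Junb, Jund, Fos, Fosb, Fosl1, Fosl2, Atf3, Egr1 and Myc are genes of the AP-1 family and of early-response transcription factors, and they were followed here in hindlimb muscle of mice with the C26 colon tumor. The rule lists them by name, and they were chosen with earlier results of these data known. Each of the 10 had its own probe set among the 18782 uniquely named of 21212 on the array. In C26 muscle Myc, Junb, Fosl2 and Egr1 were 3.01-fold, 2.19-fold, 1.78-fold and 1.56-fold as high as in control muscle, and none of the 10 fell. Fos and Jun changed less, and the remaining 4 genes had pools that overlapped between the groups.

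Both groups were male CDF1 mice, a cross of BALB/c and DBA/2, that were 8 weeks old when obtained. C26 mice received C26 cells, a mouse colon carcinoma line, under the skin of both flanks in PBS/matrigel, and control mice received PBS/matrigel without cells at the same sites. Gastrocnemius and plantaris muscles, the plantar flexors of the hindlimb, were taken 25 days after the inoculation, when the C26 muscles were atrophied. Each pool combined the RNA of 2 to 3 muscles of 1 group, which gave 3 C26 pools (replicates 1, 3 and 4, from 4 mice) and 3 control pools (replicates 1, 2 and 3, from 3 mice), each on 1 whole-transcript array. Pools of a group may share a mouse, so the p-values below measure only the spread between pools. All C26 mice carried 1 tumor line and were examined at 1 time.

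AP-1 is a dimer of JUN proteins with each other or with FOS or ATF proteins, which hold DNA through a basic region and pair through a leucine zipper. Several of its genes, but not all, belong to the immediate early class, transcribed within minutes of a stimulus without new protein synthesis. This class is driven mostly through serum response factor, ternary complex factors and CREB, and its mRNAs are short-lived. MYC pairs with MAX at E-boxes and drives genes of ribosome production and growth. In skeletal muscle JUNB is known for maintaining fiber size in mice, whereas FOS and EGR1 are known for brief induction by contraction.

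Values are RMA log2 signals, in which a difference of 1 is a doubling. Levels are comparable between pools for a gene, but not between genes. Genes are called risen or fallen where limma gave a Benjamini-Hochberg adjusted p of at most 0.05 over all probe sets and a change of at least 1.5-fold. Array medians lay between 4.93 and 5.02, and arrays of a group correlated at 0.994 to 0.996. The 10 markers of muscle fibers had mean levels well above the background of 3.82, which is the 95th percentile of 1259 olfactory and vomeronasal receptor probe sets. Of the 10 AP-1 and early-response genes, 9 lay above it and Fosl1 lay under it in both groups. The muscles are mixtures of cells, so fewer cells of a type and less RNA per cell cannot be told apart.

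By that test 4 of the 10 genes rose (40.0%), beside 1261 of the 21212 probe sets, or 5.94%. None of the 10 fell, beside 4.95% of probe sets, and at an unadjusted p under 0.05 by limma there was also none lower. Over all probe sets 8462 of the 21212 had an unadjusted p under 0.05, in either direction. The median change of the 10 was 0.43 on the log2 scale, and that of all probe sets was -0.05. By adjusted p alone, without the fold minimum, 6 of the 10 were higher and 0 lower, beside 14.3% and 15.8% of probe sets. In 6 of the 10 genes every C26 pool lay above every control pool, and this held for 19.3% of all probe sets. The methods' t-test, run here with equal variances, which the methods do not state, called 3 of the 10 risen. A test with unequal variances called 2, with 0 fallen in both. By adjusted p alone, Jun, Fos and Egr1 passed in neither of these tests, and Junb passed only with equal variances.

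**Figure D1:**
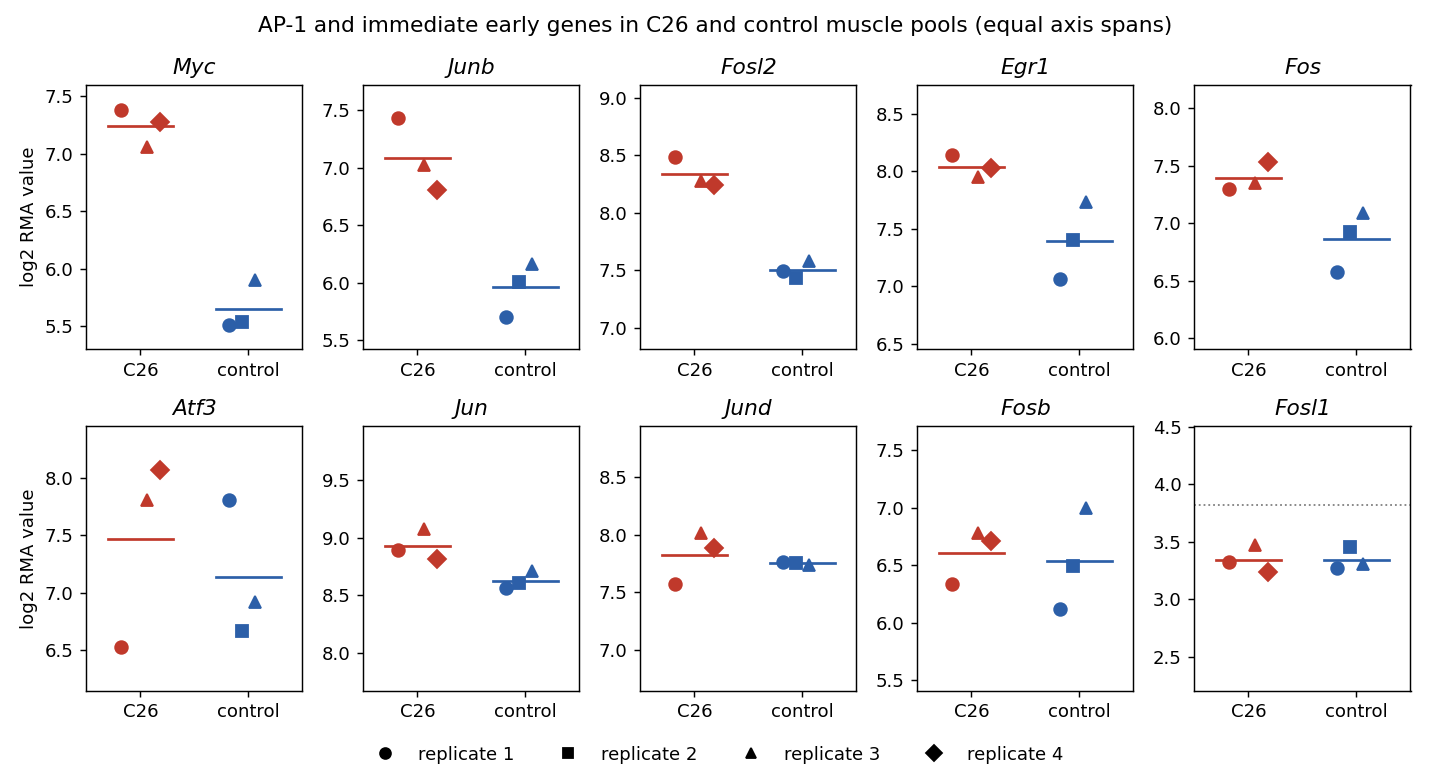
Log2 RMA value of each of the 10 genes in the C26 pools (red, left) and the control pools (blue, right), with 1 symbol per replicate number, the group mean as a bar and axes of equal span. The C26 and control pools stand apart for Myc, Junb, Fosl2, Egr1, Fos and Jun and overlap for the others, and the dotted line in the Fosl1 panel is the background of 3.82.

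Among the JUN proteins, Junb (chromosome 8) changed most. Its log2 values were 7.44, 7.03 and 6.80 in C26 replicates 1, 3 and 4, against 5.71, 6.01 and 6.16 in control replicates 1, 2 and 3. The lowest C26 pool was 0.64 above the highest control pool, although the C26 pools themselves ranged over 0.63. Junb rose by 1.13 ± 0.17 (SE; 95% interval 0.74 to 1.52), with an adjusted p of 0.00134 by limma after Benjamini-Hochberg adjustment. Its call was lost with unequal variances (adjusted p = 0.064). Of the named genes, 1.55% had a larger increase.

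Jun had 8.90, 9.08 and 8.82 in the C26 pools, against 8.57, 8.61 and 8.71 in the control pools. The pools of the groups did not overlap, with a gap of 0.11. The change was 0.30 ± 0.09 (SE; 95% interval 0.10 to 0.51; 1.23-fold) and did not reach 1.5-fold. Its adjusted p was 0.0343 by limma with Benjamini-Hochberg adjustment. It was 0.0882 in the methods' t-test, 0.135 with unequal variances and 0.171 by limma with quantile normalization (change 0.19). Over the alternatives run the adjusted p of Jun ranged between 0.0126 and 0.171, so Jun passed by adjusted p only in some of them. Jund, the JUN protein present at rest in most cells, had 7.57, 8.02 and 7.89 in the C26 pools, against 7.76, 7.76 and 7.74 in the control pools. The control pools of Jund lay within 0.02 of each other, and the C26 pools lay on both sides of them. Its change was 0.07 ± 0.11 (SE; 95% interval -0.19 to 0.33).

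Of the FOS proteins, which cannot pair with each other and need a JUN partner, Fosl2 was the member that rose. FOSL2, also called FRA-2, lacks the strong activation domain of FOS. Fosl2 (chromosome 5) had 8.49, 8.27 and 8.24 in the C26 pools, against 7.49, 7.43 and 7.58 in the control pools. The groups were separated by 0.66, and pools of each group lay close together. It rose by 0.83 ± 0.09 (SE; 95% interval 0.62 to 1.04), with an adjusted p of 0.00024 by limma after Benjamini-Hochberg adjustment, and kept the call in the methods' t-test and with unequal variances.

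Fos, the prototype of the family, had 7.29, 7.35 and 7.53 in the C26 pools, against 6.58, 6.92 and 7.09 in the control pools. All C26 pools lay above all control pools by at least 0.20. The change of 0.53 ± 0.13 (SE; 95% interval 0.22 to 0.83; 1.44-fold) had an adjusted p of 0.0168 by limma with Benjamini-Hochberg adjustment and fell short of 1.5-fold. It passed 1.5-fold with median centring of the arrays (0.59) and without control replicate 3 (0.64). Fosb had 6.34, 6.78 and 6.71 in the C26 pools, against 6.12, 6.49 and 7.00 in the control pools. The control pools of Fosb spanned 0.88 and enclosed all 3 C26 pools, and its change was 0.07 ± 0.21 (SE; 95% interval -0.41 to 0.55). Fosl1, which encodes FRA-1, had 3.33, 3.47 and 3.24 in the C26 pools, against 3.27, 3.46 and 3.31 in the control pools. All 6 values lay under the background, so no fold is given for it.

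The start regions of Junb, Jun, Fos and Fosl2 are shown because the first and the last of these rose and the other two did not pass. Each is the 250 bases upstream of the start site in RefSeq (GRCm38.p6), written along the gene's strand, and the capitals mark matches to the motifs described next. Junb is chr8:84978749-84978998 (minus strand), Jun chr4:95052223-95052472 (minus strand), Fos chr12:85473640-85473889 (plus strand) and Fosl2 chr5:32136222-32136471 (plus strand).
Junb: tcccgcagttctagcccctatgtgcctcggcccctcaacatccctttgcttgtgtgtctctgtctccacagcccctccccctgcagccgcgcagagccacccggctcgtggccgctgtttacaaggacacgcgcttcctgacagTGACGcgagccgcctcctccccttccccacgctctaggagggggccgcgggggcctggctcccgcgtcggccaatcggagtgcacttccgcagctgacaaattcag
Jun: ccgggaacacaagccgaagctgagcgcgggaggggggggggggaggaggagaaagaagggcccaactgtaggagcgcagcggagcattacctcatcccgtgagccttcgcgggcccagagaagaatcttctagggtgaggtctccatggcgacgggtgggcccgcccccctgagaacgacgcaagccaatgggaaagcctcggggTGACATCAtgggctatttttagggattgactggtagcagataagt
Fos: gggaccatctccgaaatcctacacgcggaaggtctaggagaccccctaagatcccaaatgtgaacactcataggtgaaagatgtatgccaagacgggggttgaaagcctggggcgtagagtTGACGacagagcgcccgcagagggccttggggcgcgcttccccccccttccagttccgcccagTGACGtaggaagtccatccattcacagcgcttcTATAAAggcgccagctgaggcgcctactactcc
Fosl2: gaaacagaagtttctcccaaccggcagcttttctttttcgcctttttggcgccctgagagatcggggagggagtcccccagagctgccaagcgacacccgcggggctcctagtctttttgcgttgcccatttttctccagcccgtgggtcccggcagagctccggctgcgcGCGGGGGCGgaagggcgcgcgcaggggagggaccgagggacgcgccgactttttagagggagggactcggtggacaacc

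Of the 10 genes, 7 were in the RefSeq promoter table, without Fosl1, Egr1 and Myc. Motifs were searched on both strands, beside the share of 32851 promoters of the same length that hold them. The AP-1 site TGANTCA (6.75% of promoters), the cyclic AMP response element TGACGTCA (1.55%), the CArG box of serum response factor (1.47%), the E-box CACGTG (6.02%) and the STAT site TTCNNNGAA (7.02%) had no match in these 250 bases of any of the 7. Sequence farther upstream or after the start site was not searched, so a gene without a match may still hold the site there. The related form TGACNTCA, which includes TGACGTCA, is held by 7.49% of promoters and matched in Jun as TGACATCA, from -45 to -38 relative to the start site. Its shorter core TGACG (17.8%) matched in 4 of the 7, once in Junb, Fosb and Atf3 and at 2 places in Fos. The EGR site GCGGGGGCG (2.57%) matched in Fosl2 and Fosb, and TATAAA (12.4%) in Fos. These last 4 letter patterns were added after the sequences had been seen. The upstream stretches of Junb and Fosl2, which rose, shared no matched motif with each other. Junb shared TGACG with Fos, which in the limma fit of all pools missed the call only by the 1.5-fold minimum. Whether any motif goes with the changes was not tested.

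Atf3, a stress-induced bZIP factor that pairs with JUN proteins and often represses, varied most between pools. It had 6.53, 7.80 and 8.07 in the C26 pools, against 7.81, 6.67 and 6.92 in the control pools. C26 replicate 1 was below every control pool, and control replicate 1 was above C26 replicate 3. Its change of 0.33 ± 0.41 (SE; 95% interval -0.60 to 1.26) had an adjusted p of 0.595 by limma with Benjamini-Hochberg adjustment. The interval includes changes past 1.5-fold in both directions, on the lower side only just, so these pools exclude neither a rise nor a fall of that size. The pooled SD of Atf3 was 0.72, larger than that of 99.9% of probe sets, and over the alternatives run its change ranged between -0.20 and 0.80.

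Egr1, a zinc-finger factor induced with FOS through serum response factor, had 8.14, 7.95 and 8.03 in the C26 pools, against 7.06, 7.40 and 7.73 in the control pools. The C26 pools lay within 0.19 of each other, while the control pools ranged over 0.67, and the groups were 0.22 apart. Egr1 rose by 0.64 ± 0.15 (SE; 95% interval 0.29 to 0.99), with an adjusted p of 0.0133 by limma after Benjamini-Hochberg adjustment. Its call was lost in the methods' t-test (adjusted p = 0.105), with unequal variances (0.196) and with quantile normalization (change 0.58). Without control replicate 1 the change was 0.47, under 1.5-fold.

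Myc (chromosome 15) had the largest change of the 10. It had 7.39, 7.06 and 7.28 in the C26 pools, against 5.51, 5.54 and 5.90 in the control pools. The gap of 1.16 between the groups exceeded the spread within either. Myc rose by 1.59 ± 0.13 (SE; 95% interval 1.30 to 1.88), with an adjusted p of 5.07e-05 by limma after Benjamini-Hochberg adjustment. It kept the call in every alternative run, with changes of 1.51 to 1.71, and 0.634% of named genes had a larger increase.

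**Figure D2:**
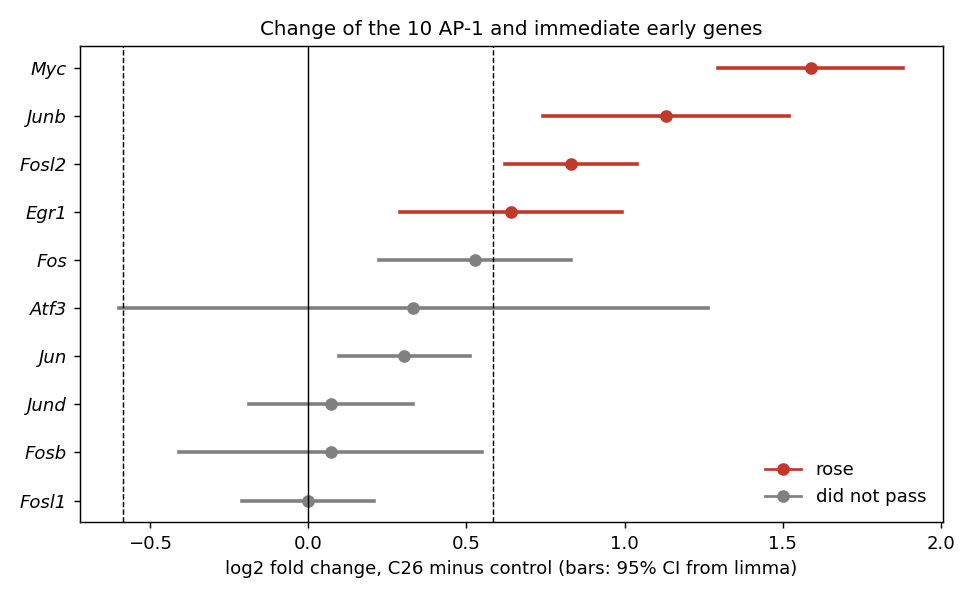
Log2 fold change, C26 minus control, of the 10 genes in order of size, with 95% intervals from limma and dashed lines at 1.5-fold. Myc, Junb, Fosl2 and Egr1 passed the test (red), the interval of Fos spans the 1.5-fold line, and Atf3 has the widest interval.

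Pools of a group differed in several of these genes by more than in most probe sets. Beside Atf3, the pooled SD was 0.36 for Fosb, 0.28 for Junb and 0.25 for Egr1, beside a median of 0.11 over all probe sets. Fosl2 (0.11), Jun (0.11) and Fosl1 (0.11) lay just under that median. Control replicate 1 was the lowest control pool in 7 of the 10 genes and control replicate 3 the highest in 7. C26 replicate 1 was the highest C26 pool for Junb, Fosl2, Egr1 and Myc and the lowest for Jund, Fos, Fosb and Atf3. Genes of other lists that rose were mixed in this. It was the lowest C26 pool for Maff, Mafk and Nr4a3 and the highest for Gadd45a and Ier3. How often each pool is the highest or lowest over all probe sets was not counted.

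Of 17 other bZIP genes listed 15 were measured, and 4 rose (26.7%, beside 5.94% of all probe sets) and 2 fell (13.3%, beside 4.95%), with a median change of 0.12. Maff, a small MAF protein without an activation domain, had 7.13, 7.65 and 7.56 in the C26 pools, against 5.05, 5.00 and 4.96 in the control pools. Maff rose by 2.44 ± 0.13 (SE; adjusted p = 6.93e-06 by limma with Benjamini-Hochberg adjustment). The other risers were Bach1, a heme-regulated repressor that pairs with small MAFs (1.49 ± 0.09), Mafk, a further small MAF (1.43 ± 0.12), and Nfe2l2, the oxidative stress activator NRF2 (1.07 ± 0.08). The large MAF proteins Maf (-1.43 ± 0.08) and Mafa (-1.10 ± 0.16) fell, and they activate fast myosin genes in mouse muscle. Bach2, at 0.58 ± 0.08, and Mafg, at 0.51 ± 0.13, were under 1.5-fold. Atf2, a partner of JUN, had 0.10 ± 0.07, Nfe2l1 had 0.12 ± 0.08, and Batf, Batf2, Batf3, Jdp2 and Nfe2 lay between -0.10 and 0.16.

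**Figure D3:**
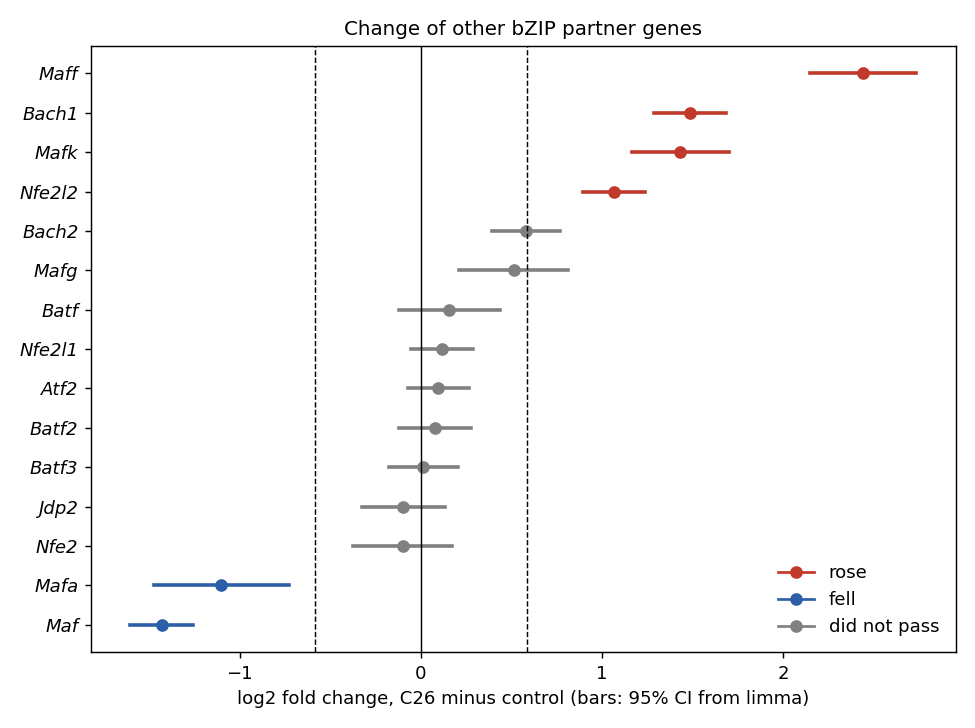
Log2 fold change, C26 minus control, of the 15 other bZIP genes measured, with 95% intervals from limma and dashed lines at 1.5-fold. Maff, Bach1, Mafk and Nfe2l2 rose (red), Mafa and Maf fell (blue) and 9 genes did not pass (grey).

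Of 30 other immediate early genes, 13 rose (43.3%, beside 5.94% of all probe sets) and 0 fell (beside 4.95%) by limma with Benjamini-Hochberg adjustment, with a median change of 0.29. At an unadjusted p under 0.05, 3 were lower, and the methods' t-test and the test with unequal variances called 11 and 6 risen and 0 fallen. The largest rise was that of Gadd45a, a growth arrest gene linked to denervation atrophy in mice, at 2.23 ± 0.18 (SE; adjusted p = 5.45e-05 by limma with Benjamini-Hochberg adjustment). It had 9.55, 8.83 and 8.96 in the C26 pools, against 6.84, 6.71 and 7.09 in the control pools. Ier3 (1.49 ± 0.13) and Klf10 (1.35 ± 0.09), a zinc-finger repressor, rose as well. The orphan nuclear receptor Nr4a3 rose by 1.54 ± 0.33, and its values were 6.38, 7.74 and 7.81 in the C26 pools, against 5.96, 5.64 and 5.69 in the control pools. C26 replicate 1 was the low C26 pool of Nr4a3, as it was of Atf3. The call of Nr4a3 was lost in the methods' t-test (adjusted p = 0.101) and with unequal variances (0.203).

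Close relatives of the genes that rose did not all do so. Egr2 had a change of 0.04 ± 0.10, Egr3 of -0.25 ± 0.09 and Egr4 of -0.01 ± 0.09. Nr4a1, a nuclear receptor induced by contraction, had 10.22, 10.64 and 10.67 in the C26 pools, against 10.80, 10.70 and 10.93 in the control pools. All C26 pools of Nr4a1 were lower, but its adjusted p was 0.123 by limma with Benjamini-Hochberg adjustment. Ier2 had 0.23 ± 0.13. Whether these changes differ from those of Egr1 and Nr4a3 was not tested.

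The kinases upstream of AP-1 were mostly not called. Of 26 listed 21 were measured, with a median change of -0.23. Map3k14 alone rose and Map2k6 alone fell (4.76% each, beside 5.94% and 4.95% of all probe sets). Map3k14, the kinase NIK of the alternative NF-kappaB pathway, rose by 1.14 ± 0.09. Map2k6, which activates p38, had 5.49, 5.64 and 5.42 in the C26 pools, against 7.82, 7.69 and 7.73 in the control pools, and fell (change -2.23 ± 0.08, adjusted p = 1.96e-06 by limma with Benjamini-Hochberg adjustment). By adjusted p alone, without the fold minimum, 9 of the 21 were lower and 3 higher, beside 15.8% and 14.3% of all probe sets. Among the lower were the p38 kinase Mapk14 (-0.50 ± 0.11), the JNK kinase Mapk9 (-0.29 ± 0.07) and the JNK activator Map2k4 (-0.37 ± 0.10).

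Of 10 MAP kinase phosphatases, which switch these kinases off, 0 rose and 1 fell by limma with Benjamini-Hochberg adjustment, counts near the shares of 5.94% and 4.95% over all probe sets, with a median change of -0.13. At an unadjusted p under 0.05, 3 were higher, and the methods' t-test and the test with unequal variances called 0 risen. The one that fell was Dusp10, which acts on p38 and JNK. Dusp10 had 5.12, 5.25 and 5.34 in the C26 pools, against 7.41, 7.09 and 7.77 in the control pools (change -2.19 ± 0.16). Dusp1, itself an immediate early gene, had -0.43 ± 0.10, under 1.5-fold. Of 12 serum response and CREB factors 2 rose and 1 fell (16.7% and 8.33%, beside 5.94% and 4.95% of all probe sets), with a median change of -0.02. Elk4, a ternary complex factor, rose by 1.41 ± 0.08 and Crtc2, a CREB coactivator, by 0.74 ± 0.11. Mrtfa, the actin-regulated coactivator of serum response factor, fell (-1.32 ± 0.11), and Srf itself had -0.43 ± 0.07, under 1.5-fold. Among 10 genes for ligases and adaptors that degrade JUN, JUNB or MYC proteins, 1 rose and 1 fell (beside 5.94% and 4.95% of all probe sets), with a median change of -0.06. The MYC and JUN ligase subunit Fbxw7 fell (-1.12 ± 0.10) and Trib1, an adaptor of the COP1 ligase, rose (0.71 ± 0.11). Protein levels were not measured.

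In the network of MYC partners, 15 of 16 genes listed were measured, and 2 rose and 1 fell (13.3% and 6.67%, beside 5.94% and 4.95% of all probe sets), with a median change of 0.02. The MAX partners Mga (0.73 ± 0.07) and Mnt (0.59 ± 0.08), both of which oppose MYC, rose, and Mlxipl, the carbohydrate-responsive factor, fell (-0.62 ± 0.07). Max had 0.49 ± 0.10, under 1.5-fold. Of 25 textbook targets of MYC, 13 rose (52.0%, beside 5.94% of all probe sets) and 4 fell (16.0%, beside 4.95%), with a median change of 0.66. The risers were led by genes of the nucleolus, with Gnl3 at 1.60 ± 0.12, Npm1 at 1.27 ± 0.18 and Nop58 at 1.00 ± 0.09. Tfrc, the transferrin receptor, went the other way, with 4.73, 4.85 and 4.98 in the C26 pools, against 8.84, 8.62 and 8.43 in the control pools, and fell (change -3.78 ± 0.12, adjusted p = 7.75e-07 by limma with Benjamini-Hochberg adjustment). The others that fell were Ccnd2, a cyclin, Eif4e, the cap-binding factor, and Nme1.

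Of 20 textbook AP-1 targets 18 were measured, and 3 rose and 2 fell (16.7% and 11.1%, beside 5.94% and 4.95% of all probe sets), with a median change of 0.03. The risers were the matrix protease Mmp3 (2.07 ± 0.15), whose control mean of 3.81 was under the background, the heme oxygenase Hmox1 (1.92 ± 0.16), which is also a target of BACH1 and NRF2, and the protease inhibitor Timp1 (1.02 ± 0.11). Cyclin D1, Ccnd1, fell (-1.53 ± 0.17), and so did the growth factor Hbegf (-0.59 ± 0.14). Of 10 genes of the integrated stress response, which includes Atf3 in its program, 4 rose (40.0%, beside 5.94% of all probe sets) and 0 fell (beside 4.95%) by limma with Benjamini-Hochberg adjustment, with a median change of 0.35. There was 1 lower at an unadjusted p under 0.05 and 0 fallen by the methods' t-test and with unequal variances. The call of Chac1 was lost in those tests (adjusted p = 0.0529 and 0.0932). The risers were Chac1, a glutathione-degrading enzyme (1.97 ± 0.32), Ppp1r15a, the phosphatase subunit GADD34 (1.90 ± 0.08), the bZIP factor Cebpb (1.37 ± 0.13) and Atf4 (0.92 ± 0.08), the main activator of the response. Ddit3, the pro-apoptotic factor CHOP, had -0.30 ± 0.13.

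**Figure D4:**
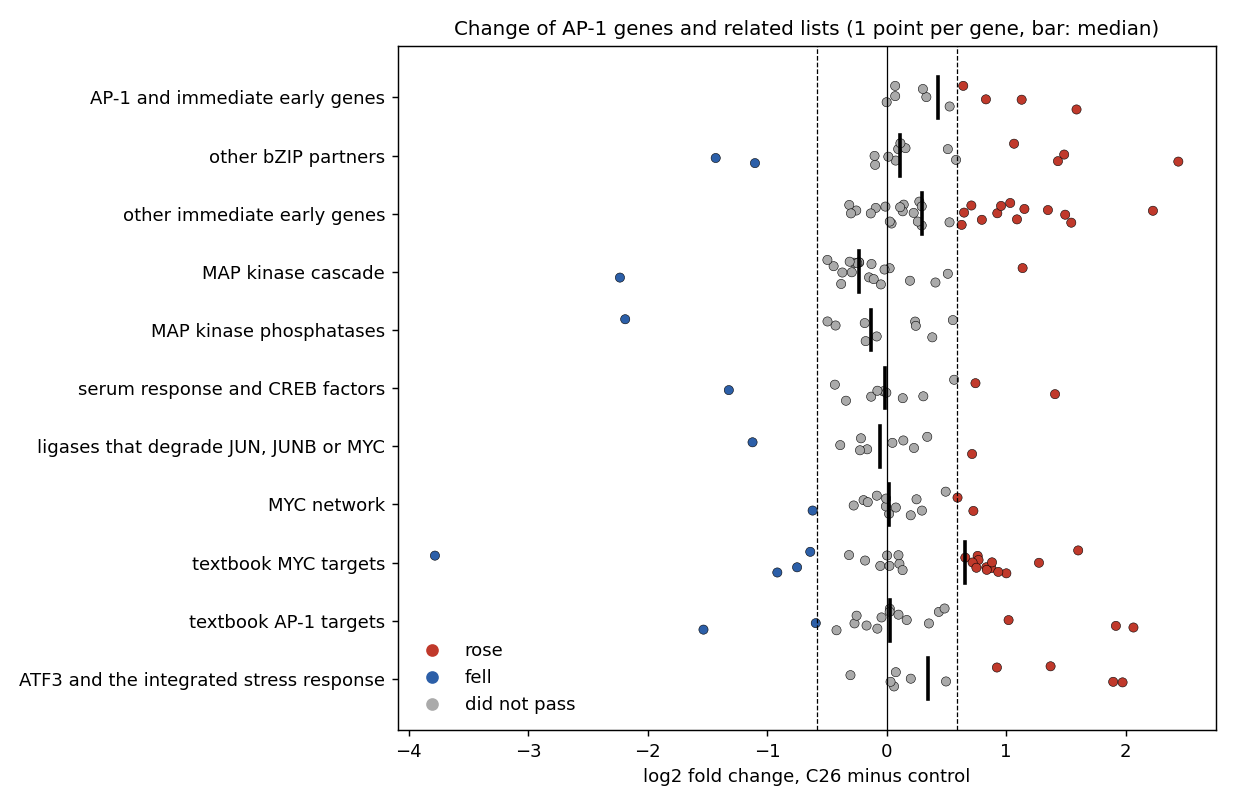
Log2 fold change, C26 minus control, of each gene of 11 lists, with 1 point per gene, the list median as a black bar and dashed lines at 1.5-fold (red rose, blue fell, grey did not pass). The 10 AP-1 and early-response genes have no point on the lower side past the line, and their median of 0.43 lies right of 0.

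Markers of other cell types changed in different directions, and their relation to the 10 genes was not measured. The counts below stand beside 5.94% of all probe sets risen and 4.95% fallen. At an unadjusted p under 0.05 by limma there were 8462 of the 21212 probe sets, in either direction. A sum weighs genes of high signal most. Of 12 neutrophil markers 7 rose (58.3%), and 5 lay under the background in both groups, Ly6g, Mpo and Camp among them and also Ngp, which is counted as risen. Their summed linear signal was 253.7 to 303.5 in the C26 pools, against 112.0 to 121.4 in the control pools. Of 11 macrophage markers measured 7 rose (63.6%), with sums of 1420.5 to 1484.1 in the C26 pools, against 863.3 to 973.1 in the control pools. The macrophage markers Csf1r (0.02 ± 0.08) and Adgre1 (0.00 ± 0.08) did not pass. Of 8 fibroblast markers 4 fell, and their sum was 3578.7 to 4240.6 in the C26 pools, against 7216.6 to 8250.6 in the control pools. Of 7 lymphocyte markers 0 rose and 0 fell by limma with Benjamini-Hochberg adjustment (0 higher and 2 lower at an unadjusted p under 0.05, and 0 risen and 0 fallen by the methods' t-test), and 5 lay under the background in both groups. The sums of endothelial markers were 1250.4 to 1405.7 in the C26 pools, against 1368.9 to 1451.3 in the control pools, with 1 risen and 1 fallen of 8 (12.5% each). Those of satellite cell and myoblast markers were 629.5 to 650.6 in the C26 pools, against 762.2 to 791.4 in the control pools, likewise with 1 risen and 1 fallen of 8 (12.5% each). The 10 muscle fiber markers summed to 42771.0 to 44740.9 in the C26 pools, against 48763.9 to 50066.2 in the control pools, and 1 of them, Mylpf, fell. The part of these cells in the changes of the AP-1 genes was not tested.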

How the data were processed

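RNA of pooled muscles was hybridized to Affymetrix Mouse Gene 1.0 ST arrays, with 3 C26 and 3 control pools. The authors made the deposited log2 values by RMA (GenePattern; Brainarray custom CDF, version 13), which corrects background, normalizes by quantiles and summarizes probes per gene. A genome build of the probes was not given in the sources used here. The number of arrays limits the precision. Groups were taken from the sample labels. All 21212 probe sets were fitted with limma 3.58.1 in R 4.3.3 (lmFit, eBayes, two-sided, Benjamini-Hochberg), with tables and figures made in Python 3.11.15. The fit was tested on simulated data.

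Of the probe sets 18782 carried 1 symbol of their own, and 18771 of these were found in RefSeq. Symbols were matched through synonyms, but not where the synonym now names a different gene. Unmatched genes are not analysed here. The 10 genes and all lists were chosen with earlier results of these data known, and the lists are described by counts and medians only. The text names the 10 genes, up to 4 called members of each list with the largest change, and, of the cell type markers, some of those called or at the background. Nfe2l2, Mafa, the other bZIP genes, Egr2, Egr3, Egr4, Nr4a1, Ier2, Mapk9, Mapk14, Map2k4, Dusp1, Srf, Max, Ddit3, Ccnd2, Eif4e, Nme1, Hbegf, Ngp, Csf1r, Adgre1, Dcn, Pdgfrb and Pdgfra were named after their values had been seen. The alternatives were 2 other tests, 2 other thresholds, another limma setting, 3 scalings, a filter on dim probe sets, a block on replicate number, and the omission of each pool.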

Additional observations from a re-analysis of the deposited data

How the results depend on the processing

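The direction of every AP-1 gene called held under all alternatives run. With unequal variances 760 probe sets rose and 621 fell, without the fold minimum 3041 and 3344, and at 2-fold 432 and 307, beside 1261 and 1049. Median centring gave 1534 higher and 839 lower (64.6% of calls higher, beside 54.6%). Of the 10 AP-1 genes 2 rose with unequal variances, 2 at 2-fold, and 3 to 5 with a pool left out. Egr1 lost its call without control replicate 1, and Fos gained one without control replicate 3.

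With unequal variances, 1 other bZIP gene fell, and 6 other immediate early genes, 1 serum response or CREB factor, 0 ligases and 8 MYC targets rose. There 2 MYC targets and 1 AP-1 target fell, and Mafk, Crtc2, Trib1, Npm1 and Hmox1 lost their calls. At 2-fold, 7 other immediate early genes, 1 serum response or CREB factor, 0 ligases, 0 MYC network genes and 3 MYC targets rose, while 0 MYC network genes, 1 MYC target and 1 AP-1 target fell. Without the fold minimum, 3 MAP kinase genes, 2 phosphatases, 4 serum response or CREB factors, 2 ligases, 4 MYC network genes and 5 AP-1 targets rose, and 1 other immediate early gene, 9 MAP kinase genes, 3 phosphatases, 3 serum response or CREB factors, 2 ligases and 2 MYC network genes fell. The methods' t-test and median centring left 1 AP-1 target fallen, and median centring 0 MYC network genes. Quantile normalization gave 2 MAP kinase genes fallen. It gave 1 phosphatase risen, as did median centring and cyclic loess, and both it and cyclic loess left 1 MYC network gene risen. Leaving out a pool gave 1 to 2 MAP kinase genes fallen, 0 to 1 phosphatases risen, 1 to 2 MYC network genes risen and 1 to 2 AP-1 targets fallen. The higher counts for kinases came without C26 replicate 1, and for phosphatases also without control replicate 2. The lower counts came without C26 replicate 1, C26 replicate 3 or control replicate 1 for the MYC network, and without C26 replicate 1 or control replicate 1 for AP-1 targets. Mnt lost its call with quantile normalization, cyclic loess and the omissions named for its network, and Mlxipl with median centring. The cause of these shifts was not tested beyond the change of test or threshold itself.

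Only numbers 1 and 3 are shared by both groups. Deviations of same-numbered pools correlated at -0.06 and -0.06, and those of differently numbered pools at -0.03 to 0.07. The labels do not say what the number stands for. With so few pools this check cannot tell whether same-numbered pools were handled together. With the replicate block 3 of the 10 AP-1 genes rose, Egr1 having an adjusted p of 0.0632 by limma with Benjamini-Hochberg adjustment, 1 phosphatase and 0 ligases rose, and 1235 and 1069 probe sets rose and fell. With 3 pools a group, changes of noisy genes such as Atf3 were not resolved.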
